A study of Arabidopsis thaliana with 5 samples.

Results

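The genes described here are 10 Arabidopsis loci whose products set the level of the floral repressor gene FLC: FRI (AT4G00650), FCA (AT4G16280), FPA (AT2G43410), FLK (AT3G04610), FY (AT5G13480), FLD (AT3G10390), FVE (AT2G19520), LD (AT4G02560), VIN3 (AT5G57380) and VRN2 (AT4G16845). They were taken as a list of named loci by a rule that uses no measured value, though earlier results of these data were known. Each was matched to its annotated span, 10 genes of 27444 nuclear protein-coding genes in the gene table. R-loops were mapped by DNA:RNA immunoprecipitation (DRIP), in which the S9.6 antibody pulls down DNA fragments that hold a DNA:RNA hybrid. The material was wild-type seedlings of ecotype Columbia, 12 days old, and no treatment of the plants is given in the labels. The series has 2 DRIP replicates, 2 DRIP samples whose DNA was treated with RNase H, which destroys the RNA of a hybrid, and 1 input sample. Values were analysed for the DRIP replicates and not for RNase H or input, so how far RNase H lowers any peak described below is not reported. Peaks of both genome strands together were deposited for each replicate, and peaks of each strand, named w and c, were deposited under replicate 1.

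FLC delays flowering, and its regulators act in opposite directions. FRI builds a protein complex that raises FLC transcription, and Columbia is known to carry a non-functional FRI allele. The genes of the autonomous pathway lower FLC in the absence of cold, through RNA processing of the antisense transcripts called COOLAIR and through chromatin. The vernalization genes silence FLC after a long winter, when VIN3 joins a Polycomb complex that contains VRN2. An R-loop over the COOLAIR promoter at FLC itself has been described in this plant, and the data below concern the loci of the regulators.

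Replicate 1 had 47291 peaks and replicate 2 had 39888, with 34493 peaks in the w list and 34069 in the c list. Read numbers cannot be recovered from peak lists, so sequencing depth is unknown and no counting interval is given. The value of a peak is the authors' fold, the ratio of signal at the summit to the local background, and it ranks peaks within a list. The median peak fold was 3.01 in replicate 1 and 2.98 in replicate 2, against 3.88 in w and 3.90 in c. A strand fold above the fold of the DRIP peak it overlaps therefore does not by itself mark a strong peak. The labels do not state whether separate plants were grown for each replicate, and the spread between replicates may be technical. With 1 condition analysed there is no contrast between groups of samples, and no difference below was tested. The w and c lists are not a further replicate. Over the whole genome, 52.0% of w peaks that overlapped a replicate 1 peak had their summit on the same base, against 4.55% of those that overlapped a replicate 2 peak. For c peaks the shares were 51.3% and 4.66%.

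In both replicates, DRIP peaks overlapped 7 of the 10 regulators: FRI, FCA, FPA, FLK, FY, FLD and VIN3. Over all protein-coding genes the share was 60.6%, and it was 74.6% over the 9206 genes whose span lay within the range of the members, 2603 to 8385 bp. The count of 7 in 10 lies between these backgrounds. FVE and LD carried a peak in replicate 1 and none in replicate 2, as 6.74% of all protein-coding genes did. VRN2 was free of peaks in all 4 lists, a state shared by 20.7% of all protein-coding genes and by 8.39% of those in the members' range of span. The medians over the 10 genes, with a gene without a peak ranked lowest, were a highest fold of 2.99 in replicate 1 and 2.74 in replicate 2. Over all protein-coding genes they were 2.96 and 2.74, and over genes in the same range of span 3.44 and 3.23.

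**Figure D1:**
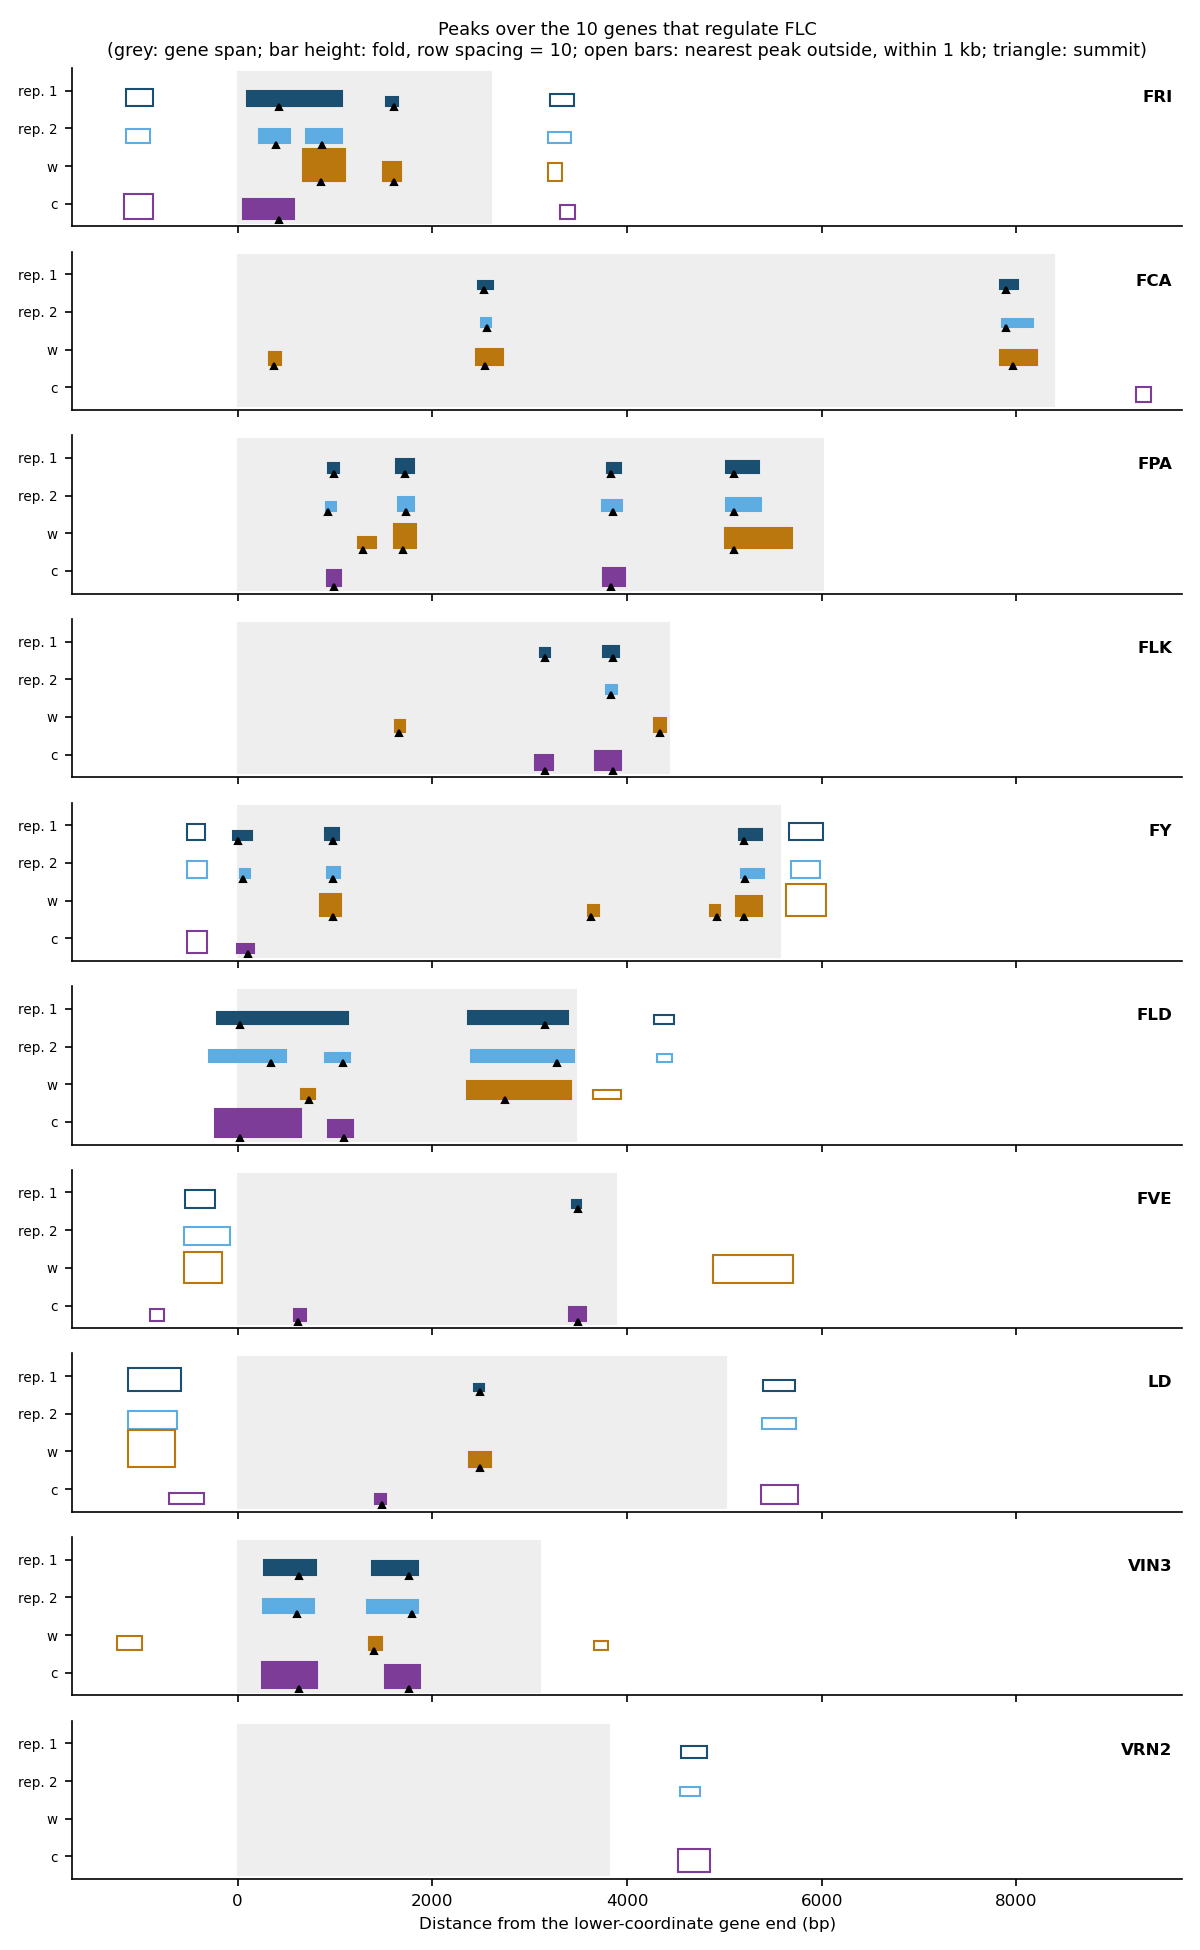
Peaks of the 4 lists over the 10 regulators, by distance in bp from the lower-coordinate end of each gene (grey box). Filled bars are peaks over the gene, with height proportional to fold, open bars are the nearest peaks within 1 kb outside, and triangles mark summits. VRN2 is the 1 gene with an empty box, and FVE and LD have replicate 1 peaks without a replicate 2 peak.

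FRI encodes the coiled-coil scaffold of the complex that activates FLC. Its highest fold was 3.80 in replicate 1 and 3.94 in replicate 2, a mean of 3.87 ± 0.099 (SD, n = 2). The peaks found in both replicates lay in the lower-coordinate part of the gene. In replicate 1 a single peak of 981 bp ran from 268994 to 269974 on chromosome 4 (TAIR10), and replicate 2 had 2 peaks there, at 269116 to 269437 and at 269600 to 269973. The strand lists divided the same stretch in the way replicate 2 did, with a c peak at 268959 to 269479 (fold 5.15) and a w peak at 269572 to 270005 (fold 8.40). The w peak had the highest strand fold among the 10 genes. A weaker replicate 1 peak at 270429 to 270548 (fold 2.38) coincided with a w peak of fold 5.20 and was absent from replicate 2. Peaks covered 42.3% of the FRI span in replicate 1 and 26.7% in replicate 2, a mean of 34.5% ± 11.0 (SD, n = 2), the widest spread among the 10 genes. DRIP peaks also lay on either side of FRI, 871 bp below it in KEA2 (AT4G00630; 4.31 in replicate 1 and 3.93 in replicate 2) and 602 bp above it (3.01 and 2.96, over no annotated gene).

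FCA, FPA, FLK and FY act on RNA. FCA and FPA are RNA-binding proteins with RNA recognition motifs that favour early 3′ end formation of antisense transcripts at FLC, FLK is an RNA-binding protein with KH domains, and FY is a subunit of the 3′ end processing machinery that binds FCA. Each of the 4 genes was peaked in both replicates, and the strength differed between them.

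FPA was the most densely peaked of these genes. It held 4 DRIP peaks in replicate 1 and 4 in replicate 2, and each peak of one replicate overlapped one of the other. As many as 4 replicate 1 peaks were found in 4.58% of all protein-coding genes and in 10.9% of those in the members' range of span. The strongest, at chromosome 2, 18026874 to 18027056 in replicate 1, had folds of 3.83 and 3.75 (mean 3.79 ± 0.056, SD, n = 2), and its summits in the replicates were 4 bp apart. The others had folds of 2.55, 2.71 and 3.11 in replicate 1 and 2.19, 2.83 and 3.47 in replicate 2, in order of position. From the lower end, the 4 DRIP peaks overlapped c, w, c and w peaks with strand folds of 4.15, 6.48, 4.74 and 5.49, and none overlapped both. Another w peak, at 18026485 to 18026668 (fold 3.09), lay between the first pair and overlapped no DRIP peak. The lowest of the 4 DRIP peaks also lies over AT2G09470, an annotated lncRNA gene inside FPA, so its signal cannot be assigned to one of them.

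FY had 3 DRIP peaks in each replicate, and each was found in both. The peak at 4327299 to 4327442 on chromosome 5 had the highest folds, 3.27 in replicate 1 and 3.02 in replicate 2 (mean 3.14 ± 0.18), with summits 1 bp apart. It overlapped a w peak of fold 5.75. The w peaks of FY with folds of 2.73 and 2.80 overlapped no DRIP peak of either replicate. A weak peak lay at the lower end of the gene (2.47 and 2.29), reaching 44 bp outside it in replicate 1 and starting 26 bp inside it in replicate 2, and overlapped a c peak of fold 2.56. Stronger peaks lay just outside FY on both sides. Above the gene, 85 bp from its end in replicate 1, stood a peak over no annotated gene with folds of 4.71 and 4.57 and a w fold of 8.32. Below it, at 340 bp in replicate 1, stood a peak over the pseudogene AT5G13475 with folds of 4.23 and 4.48 and a c fold of 5.98.

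FCA, the longest of the 10 genes at 8385 bp, was weakly marked. Its 2 DRIP peaks had folds of 2.31 and 2.47 in replicate 1 and of 2.29 and 2.19 in replicate 2, so the highest fold averaged 2.38 ± 0.13 (SD, n = 2). Of all protein-coding genes, 57.3% had the same or a higher smaller-of-replicates fold, as did 71.7% of those in the members' range of span. One peak lay at 9209062 to 9209221 and the other at 9214426 to 9214610 on chromosome 4, near the higher-coordinate end, with summits 29 and 3 bp apart between replicates. Both overlapped w peaks (4.13 and 3.98). Another w peak, at 9206916 to 9207045 (fold 3.39), overlapped no DRIP peak. No c peak overlapped FCA, and it was the 1 member with w peaks alone, a state of 24.2% of all protein-coding genes.

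FLK had a repeated peak at 1254306 to 1254472 on chromosome 3, with folds of 2.71 in replicate 1 and 2.47 in replicate 2 (mean 2.59 ± 0.17) and a c fold of 4.89. A replicate 1 peak at 1253657 to 1253761 (fold 2.15) was absent from replicate 2 and overlapped a c peak of fold 4.00. The 2 w peaks of FLK (3.24 and 3.68) overlapped no DRIP peak of either replicate.

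**Figure D2:**
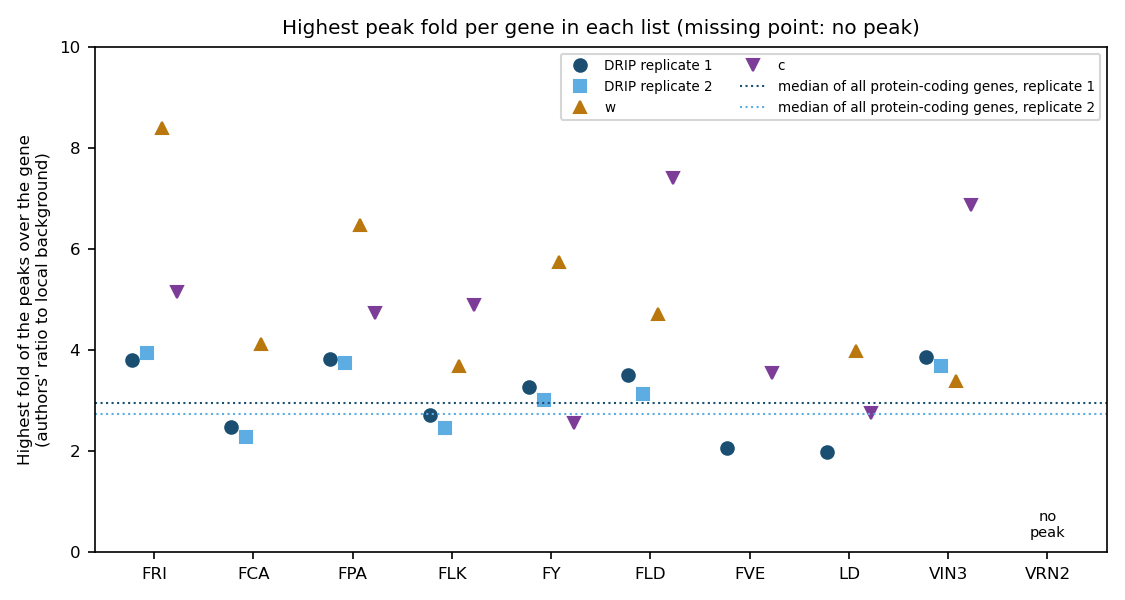
Highest fold (ratio of summit signal to local background) of the peaks over each regulator in DRIP replicate 1, DRIP replicate 2, w and c, with dotted lines at the DRIP medians over all protein-coding genes. FRI, FPA, VIN3, FLD and FY lie above the lines in both replicates, from 3.02 to 3.94, and FCA and FLK lie below them, from 2.29 to 2.71. FVE (2.07) and LD (1.99) have a DRIP point in replicate 1 alone, below its line. Medians over genes in the members' range of span, not drawn, were 3.44 in replicate 1 and 3.23 in replicate 2. FRI, FPA and VIN3 exceed these in both replicates, FLD in replicate 1 alone and FY in neither.

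FLD, FVE and LD belong to the chromatin side of the autonomous pathway: FLD is related to the histone demethylase LSD1, FVE is a WD40 protein found in histone deacetylase complexes, and LD is a homeodomain protein. These 3 genes ranged from the most to the least covered of the autonomous group. DRIP peaks spanned 62.3% of FLD in replicate 1 and 52.1% in replicate 2 (57.2% ± 7.21, SD, n = 2), and 4.74% of all protein-coding genes had the same or a higher mean covered share. Its folds were moderate, 3.51 and 3.13 at the highest (mean 3.32 ± 0.27). Wide peaks sat at either end of FLD. The one at the higher-coordinate end ran from 3231425 to 3232450 on chromosome 3 in replicate 1 (1026 bp) and overlapped a w peak of fold 4.72. The one at the lower-coordinate end ran from 3228850 to 3230197 (1348 bp), reached 210 bp outside the gene into SEC8, and overlapped c peaks with folds of 7.41 and 4.44 and a w peak of fold 2.69. In replicate 2 the lower peak was divided, at folds of 3.02 and 2.30, and the higher peak reached the neighbour AT3G10405. With peaks that overlap another gene left out, the covered share of FLD was 18.5% ± 15.7.

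FVE and LD had few and weak DRIP peaks inside their spans. The single FVE peak, at 8459186 to 8459285 on chromosome 2, had a fold of 2.07 in replicate 1 and no counterpart in replicate 2, though a c peak of fold 3.55 had its summit on the same base. Another c peak of FVE, at 8456337 to 8456462 (fold 2.96), overlapped no DRIP peak, and c peaks covered 7.51% of FVE, against a median of 6.92% over genes in the same range of span. LD had a replicate 1 peak at 1125906 to 1126005 on chromosome 4 with a fold of 1.99, under a w peak of fold 3.99, and none in replicate 2. The c peak of LD, at 1124881 to 1124994 (fold 2.75), overlapped no DRIP peak. The DRIP peaks of FVE and LD were 100 bp wide. Stronger peaks that recurred in both replicates lay just outside. Below FVE, over no annotated gene, a peak at 8455218 to 8455525 had folds of 4.55 in replicate 1 and 4.94 in replicate 2 and a w fold of 8.25, and its edge was 231 bp from FVE in replicate 1 and 80 bp in replicate 2. Below LD, 585 bp away in replicate 1, a peak over the snoRNA genes AT4G02555 and AT4G04205 had folds of 6.16 and 4.85 and a w fold of 9.64. Above LD, 378 bp away, a peak in CUL1 (AT4G02570) had folds of 2.87 and 2.83.

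VIN3 and VRN2 act in vernalization. VIN3 encodes a PHD finger protein known to be induced by long cold, and VRN2 a Polycomb protein related to Su(z)12 of Drosophila. VIN3 was among the more strongly peaked of the 10 genes, and VRN2 was the 1 gene without a peak. VIN3 had 2 DRIP peaks in each replicate, with folds of 3.86 and 3.59 in replicate 1 and 3.68 and 3.37 in replicate 2. Its highest fold averaged 3.77 ± 0.13 and its covered share 33.2% ± 0.93 (SD, n = 2). In replicate 1 the peaks lay at 23246664 to 23247196 and 23247773 to 23248251 on chromosome 5, with summits 13 and 25 bp from those of replicate 2. Both were under c peaks (6.88 and 6.07), and a w peak of fold 3.39 overlapped the lower edge of the second. VRN2 carried no peak over its 3810 bp. The nearest DRIP peak lay 745 bp above it in replicate 1 and 733 bp above it in replicate 2, in AT4G16850, with folds of 3.35 and 2.47.

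**Figure D3:**
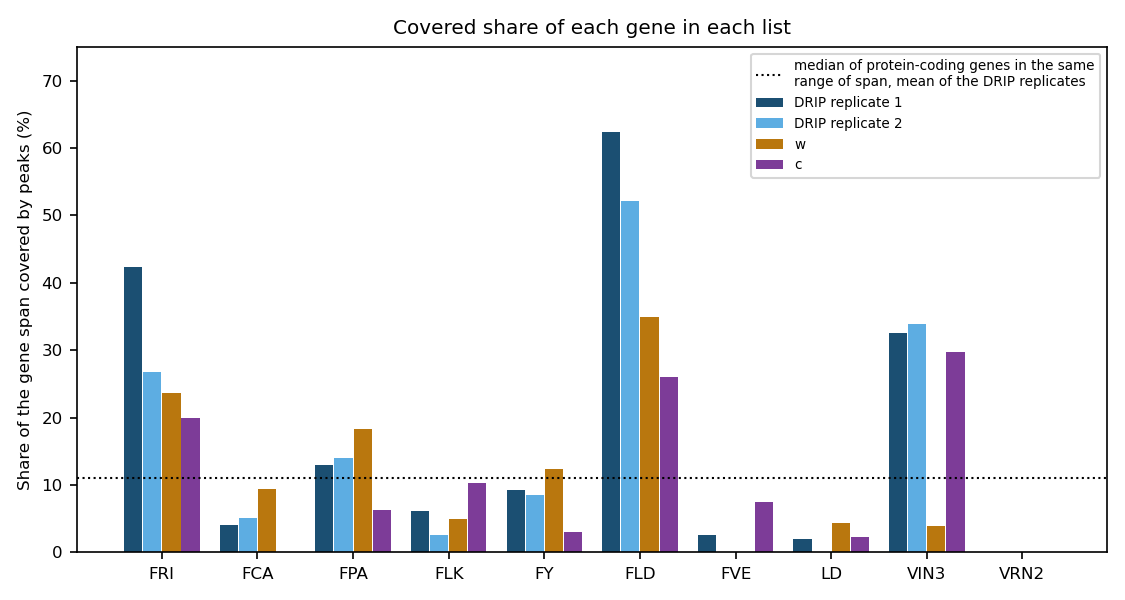
Share of each regulator's span (%) covered by peaks in DRIP replicate 1, DRIP replicate 2, w and c. The dotted line is the median of 11.1% over protein-coding genes in the same range of span (mean of the DRIP replicates). FLD, FRI, VIN3 and FPA lie above it in both DRIP replicates.

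Ordered by mean highest fold, the 7 genes peaked in both replicates ran FRI, FPA, VIN3, FLD, FY, FLK and FCA. The replicate values of FRI, FPA and VIN3 overlapped, with steps of 0.081 from FRI to FPA and 0.017 from FPA to VIN3, and FRI and VIN3 changed places between replicates. VIN3 exceeded FLD by 0.45 and FY exceeded FLK by 0.55, with no overlap of the replicate values. The ranges of FLD and FY overlapped, as did those of FLK and FCA. Ranks 4 to 7 were the same in both replicates. By covered share, a measure per length, the order was FLD, FRI, VIN3, FPA (13.5% ± 0.65), FY (8.91% ± 0.58), FCA (4.58% ± 0.66), FLK (4.33% ± 2.55), FVE (1.29% ± 1.82), LD (0.997% ± 1.41) and VRN2 (0%). The replicate values of FRI and VIN3 overlapped, as did those of FCA and FLK, of FLK and FVE, and of FVE and LD, and LD in replicate 2 was at 0% like VRN2. Over the summed spans of the 10 genes, peaks covered 13.8% in replicate 1 and 11.7% in replicate 2, against 14.5% and 13.1% over genes in the same range of span.

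Peaks over the regulators recurred between replicates about as often as peaks elsewhere. Of 19 replicate 1 peaks, 15 had a counterpart in replicate 2 (78.9%), against 79.5% over the genome. All 17 replicate 2 peaks had a counterpart in replicate 1, against 95.1%. The 4 not found again were the weaker FRI peak, the FVE peak, the LD peak and the lower FLK peak, with replicate 1 folds of 1.99 to 2.38. The median distance between paired summits was 21 bp, the same as over the genome, with a range of 1 to 317 bp.

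On the separate strands, 8 of the 10 genes carried a w peak and 8 a c peak, against 54.9% and 54.8% of all protein-coding genes and 69% and 69.2% of those in the members' range of span. Both kinds occurred in 7 genes (30.7% of all protein-coding genes and 46.7% in the range), and FVE had c peaks alone, as 24.1% of all protein-coding genes did. Among the 15 repeated DRIP peaks of replicate 1, 7 coincided with w peaks alone, 5 with c peaks alone and 3 with both. Over all such peaks of the series the shares were 44.2%, 43.6% and 11.8%. The genes differed in which strand prevailed. The w list held 80.4% of the strand-specific peak bases in FY, 74.2% in FPA and 100% in FCA, against 11.8% in VIN3, 32.7% in FLK and 0% in FVE. FRI (54.2%) and FLD (57.3%) had similar amounts of both, placed apart. In FLD, c peaks covered 903 bp below the midpoint of the gene and 0 bp above it, while w peaks covered 144 bp below and 1070 bp above. More w bases above than below the midpoint were found in FPA, FY, FLD and FLK, 4 of 8 genes with a w peak, against 63.3% of such genes in the members' range of span. More c bases below than above it were found in FRI, VIN3, FY, FLD and LD, 5 of 8, against 64.2%. The deposited peak names begin with fwd in the w list and with rev in the c list. The transcribed strand, exons and untranslated regions of the genes were not used here. Neither list was therefore related to the direction of transcription, and the ends of genes are named by coordinate.

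The other genes of the pathway were counted in lists written from general knowledge of FLC regulation, with earlier results of these data known. Of 40 such genes, 34 were peaked in both replicates and 6 in neither DRIP list, against 60.6% of all protein-coding genes peaked in both and 74.6% in the regulators' range of span. Their median span was 3584 bp, against 2078 bp over all protein-coding genes. Their spans ran from 1072 to 9965 bp, beyond the regulators' range, so backgrounds from that range are not matched to them. Their median smaller-of-replicates fold was 3.77, against 2.74 for the 10 regulators, 2.65 for all protein-coding genes and 3.13 for those in the regulators' range of span. No test was made of these differences.

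Among FRI complex partners and activators, 5 of 6 were peaked in both replicates. FLX4, a coiled-coil partner of the complex (3.96 and 4.06), and SUF4, its zinc-finger protein (4.59 and 3.93), ranked highest, and FRL1, a FRI homologue, had no peak in any list. Autonomous pathway partners were peaked in 7 of 8 cases. They were led by LDL1 (4.71 and 5.12) and LDL2 (4.47 and 4.94), homologues of FLD, each with a higher fold than FLD in both replicates. CSTF77, a 3′ end processing factor, had no DRIP peak and a w peak of fold 2.80.

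Vernalization and Polycomb genes were peaked in 8 of 10 cases. VEL1, related to VIN3, had the highest folds of the pathway genes counted (6.46 and 6.40), followed by LHP1, which binds Polycomb-marked chromatin (5.32 and 6.01). SWN and FIE, subunits of the same kind of Polycomb complex as VRN2, had no peak in any list. Genes of activating chromatin factors were peaked in 13 of 15 cases, with VIP4 (5.50 and 5.19) and VIP5 (5.30 and 5.09), both of the Paf1 complex, in front. SEF, of the SWR1 complex, and VIP3, also of the Paf1 complex, were without DRIP peaks, though the c list had a peak of fold 2.92 at SEF and the w list one of 2.93 at VIP3. NDX, which binds the single-stranded DNA of the FLC R-loop, was peaked in both replicates (3.09 and 3.30), and FLC itself had a single weak DRIP peak, 60 bp inside its lower-coordinate end, in replicate 1 (2.31) and none in replicate 2, with w peaks of fold 3.98 and 2.95.

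**Figure D4:**
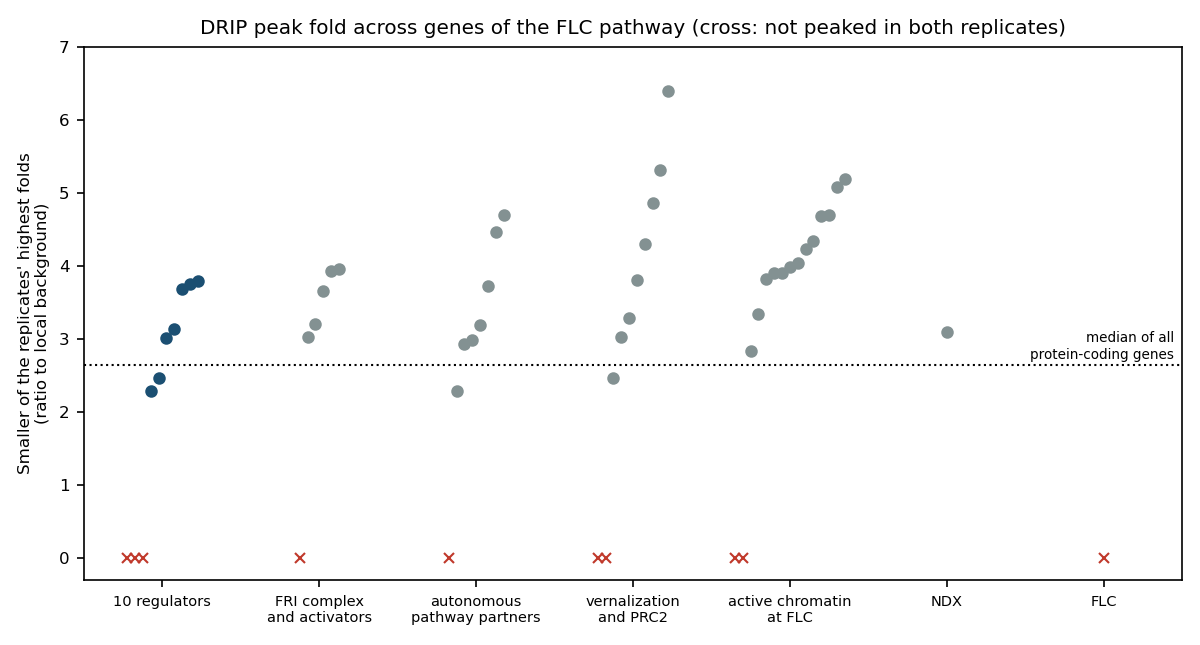
Smaller of the replicates' highest folds (ratio to local background) for the 10 regulators and for the other genes of the FLC pathway by list, 1 point per gene. Crosses mark genes without a peak in both replicates, and the dotted line is the median of 2.65 over all protein-coding genes. The 7 regulators with peaks in both replicates lie from 2.29 to 3.80, and VEL1 is the highest point at 6.40.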

How the data were processed

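DNA of 12-day-old seedlings was cut with restriction enzymes, precipitated with S9.6 and sequenced from libraries of single-stranded DNA, per the labels' protocols. Per the submitters' processing notes, the authors used CASAVA, BWA 0.7.12, the TAIR10 genome and MACS2; the sources used here do not name the control library, the parameters or any pooling. The deposited fold values are a linear ratio of summit signal to local background. The deposited -log10 p-values and q-values are those of the peak caller, and the deposited score is a whole-number form of the q-value. The deposited summit offset gave summit positions.

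Genes came from a RefSeq table of TAIR10.1, in which all 10 members and all 41 other pathway loci (FLC among them) were found. Its gene coordinates are not printed. In 10 parts (5 chromosomes in 2 replicates), peaks shifted in steps of 50 bp up to 1000 bp covered most protein-coding bases at a shift of 0 bp. A gene carried a peak when at least 1 bp overlapped. A gene's fold is the highest of its peaks. The overlap join was tested on simulated data with Python 3.11.15 and pandas 2.3.3. Named were all 10 members, FLC, genes sharing a peak with a member and, per list, the 2 genes ranked first by the lower of their replicate folds and up to 2 without a DRIP peak. Genes under peaks outside the members were named after their values were seen. The members and lists were chosen with earlier results of these data known. No sequence is shown, since no genome was used here.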

Additional observations from a re-analysis of the deposited data

How the results depend on the processing

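The counts of regulators with a DRIP peak in both replicates, a w peak or a c peak stayed within 1.5 times their values under the alternatives run (overlap of 50 bp or of 50% of the peak or more, summit inside the gene, gene span with 500 bp or 1 kb on either side, the upper 50% of peaks by fold, -log10 q of 5 or more, peaks over another gene left out, and, for the DRIP count alone, either replicate alone or a peak in at least 1 replicate), except that c peaks in the upper 50% by fold overlapped 5 genes in place of 8. The DRIP count ranged from 5 (upper 50% by fold, or -log10 q of 5 or more) to 10 (1 kb on either side), and from 7 to 9 when a replicate was left out. Over all protein-coding genes the DRIP share was 42.2% in the upper 50% by fold and 51% at -log10 q of 5 or more. With 1 kb on either side it was 77.2%, and without a replicate 62% to 67.3%. The share with a c peak in the upper 50% by fold was 38.8%. The median highest fold over the 10 genes, 2.87 averaged over the replicates, was 3.78 with 1 kb and 3.53 with 500 bp on either side, and 2.69 with peaks over another gene left out. It had no value under either stricter threshold, where too few genes kept a peak in at least 1 of the replicates. Without a replicate it ranged from 2.74 to 2.99. Over all protein-coding genes the median fold was 2.85 in the main setting, 3.49 with 1 kb and 3.23 with 500 bp. It was 2.53 with peaks over another gene left out. The median covered share, 7.25% averaged in the same way, was 10.6% with 1 kb and 9.83% with 500 bp on either side, 1.25% for the upper 50% of peaks and 3.23% at -log10 q of 5 or more. It ranged from 6.77% to 7.73% without a replicate. Over all protein-coding genes the median covered share was 9.6% in the main setting, 11% with 1 kb and 10.6% with 500 bp. It was 0% for the upper 50% of peaks and 5.74% at -log10 q of 5 or more. The cause of these moves was not tested. For single genes, 4 of 66 fold values and 22 of 100 covered shares moved by more than the SD of the replicates. These totals include values with a replicate left out, which by arithmetic cannot move that far from the mean. They leave out folds of genes that lacked a peak in either replicate, in the main setting or under the alternative. The totals therefore do not measure how stable the folds are. No paired analysis was possible because only the DRIP group has peak lists. Unknown depth limits what an absent peak can mean.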
